A study of Mus musculus with 12 samples.

Results

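Enteroendocrine cells are the hormone-secreting cells scattered through the lining of the gut, and 9 genes of their secretory products were followed here in RNA-seq of mouse intestine. The genes were chosen by name, 9 of the 54532 genes in the tables: the granins Chga and Chgb, the peptide hormone genes Sct, Gip, Gcg, Pyy, Nts and Sst, and Tph1, which encodes the enzyme that starts serotonin synthesis in the gut. There were 12 libraries of total RNA in 4 groups of 3. Small intestinal crypts, the glands between the villi where stem cells lie, came from adult wild-type (WT) mice and from adult Ctnnb1Δi.enh mice (ieCtnnb1KO in the labels), in which an intestinal enhancer upstream of Ctnnb1, the gene of β-catenin, was deleted in the germline on both chromosomes. Colon tumors came from 5-month-old Apc Min/+ mice, in which 1 of the Apc alleles is truncated, and from Ctnnb1Δi.enh;Apc Min/+ mice of the same age (APCmin/+ and APCmin/+;ieCtnnb1KO in the labels). Both tumor groups carried the Apc Min allele and neither crypt group did. Crypts were released with EDTA and filtered, with no sorting of cells, so each library mixed all the cells of the preparation.

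Enteroendocrine cells arise from crypt stem cells through progenitors that express the transcription factor Neurog3. They store peptides and amines in dense-core granules, where granins help to package the cargo, and release them toward blood and nerves when nutrients or other signals arrive. Their subtypes are named for a main product and follow the length of the gut: cells making secretin or the peptide GIP are most common in the upper small intestine, whereas cells making proglucagon peptides, peptide YY or neurotensin become more common toward the ileum and colon.

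The deposited values are FPKM, fragments per kilobase of gene length scaled to sequencing depth. Within a library, the products of FPKM and gene length were spaced by 1 constant unit (100% of values above 0, within 0.05 of a whole number of units), and with that unit taken as 1 fragment the libraries held between 14457896 and 16156712 fragments on genes. Crypts and tumors are in separate tables that were normalized separately, so genotypes were compared only within a table. Libraries of the same group correlated with r between 0.941 and 0.973 across genes on the log2 scale, and none held the same values as another. The labels name separate samples, which the figure legends of the paper count as mice, and the p-values measure the spread between these samples. Tissue labels were checked against hindgut genes: Hoxb13, Hoxd13 and Hoxd12 were at 0 in all 6 crypt libraries and passed the filter on low values in the tumors. All 11 colon markers found in the table passed it in the tumors. Of these, 6 also passed it in crypts, so the list as a whole does not tell the tissues apart. Expression of Ctnnb1 itself, next to the deleted enhancer, was lower in every knockout library of both tissues. Its FPKM was 121, 134 and 123 in WT crypts and 102, 104 and 105 in Ctnnb1Δi.enh crypts. In the tumors it was 299, 363 and 358 without the deletion and 279, 248 and 250.2 with it (log2 fold change -0.28 in crypts, adjusted p = 0.849, and -0.39 in tumors, adjusted p = 0.303).

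Each comparison asks how loss of the enhancer goes with the level of a hormone gene. Differences were taken on the scale of log2(FPKM + 0.5), where -1 means a halving and where changes of genes with low FPKM are understated. Genes reaching 0.5 FPKM on average in a table were tested with limma, with Benjamini-Hochberg adjustment over all of them, and called at an adjusted p under 0.05. Confidence intervals of log2 differences are per gene and not adjusted for the number of genes tested, so an interval that leaves out 0 is not a call. All 9 hormone genes passed the filter in crypts. None was called: limma gave 0 of 9 members and 0 of the 14176 genes tested (0%) an adjusted p under 0.05, with a lowest value of 0.728 over all genes, and limma voom on the recovered fragments called 0 as well. At an unadjusted p under 0.05 there were 4 of 9 members, against 829 genes (5.85%) over the whole table, 494 toward higher and 335 toward lower in the knockout (298 and 504 after rescaling without the 50 highest genes). Nothing particular to the list is claimed from such counts. The direction was the same for every member, lower in Ctnnb1Δi.enh crypts for 9 of 9, against 47.2% of all genes tested. Members had a median log2 fold change of -0.38 and all tested genes one of 0.014, and without Ctnnb1Δi.enh replicate 1 the median of the members was -0.20. For 3 of 9 members, Chga, Chgb and Sst, the groups did not overlap, against 11.9% of all genes, and in each case all knockout libraries were the lower ones, against 5.15% of all genes. After rescaling every library to the same total of fragments on genes, Sst was the member of these whose groups still did not overlap. The direction was lower for 9 of 9 members under each rescaling and under quantile normalization, but not with each library left out. Without WT replicate 3 it was lower for 7 of 9, Sct and Gip being higher, and without Ctnnb1Δi.enh replicate 1 it was lower for 8 of 9, Sct being higher. Leaving out WT replicate 3 also moved the number of genes called from 0 to 3, namely Gkn2, Gkn1 and Pgc, which are stomach genes, not members, and are named only because their values stood out. In such bulk libraries, fewer cells of a type and less RNA per cell cannot be told apart.

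The granins are the general markers of the lineage. Chga (ENSMUSG00000021194; GRCm38 chr12:102554969-102565028, plus strand) encodes chromogranin A, a granule protein that is also cut into bioactive peptides. Its FPKM in crypts was 43.7, 34.5 and 58.5 in the WT libraries and 22.7, 34.4 and 33.7 in the Ctnnb1Δi.enh libraries. The groups met without overlapping, as WT replicate 2 lay just above Ctnnb1Δi.enh replicates 2 and 3. The means were 45.6 ± 12.1 and 30.3 ± 6.55 (SD, n = 3 each), and the exact permutation test gave p = 0.1, the smallest two-sided value that 3 against 3 allow. On the log2 scale the difference was -0.57 (95% confidence interval -1.14 to -0.0046, adjusted p = 0.848). Leaving out single libraries gave values between -0.75 and -0.38.

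Chgb (ENSMUSG00000027350; chr2:132781278-132795079, plus strand) encodes chromogranin B, the partner granin of the same granules. In WT crypts it stood at an FPKM of 81.1, 64.4 and 98.5, and in Ctnnb1Δi.enh crypts at 49.0, 63.0 and 62.5. The libraries fell in the same order as for Chga, with WT replicate 3 highest and Ctnnb1Δi.enh replicate 1 lowest, and again the groups were separated only by the small gap under WT replicate 2. A log2 difference of -0.47 resulted (95% confidence interval -0.92 to -0.015, adjusted p = 0.845; exact permutation p = 0.1). Per library, the ratio of Chga to Chgb in FPKM was 0.539, 0.536 and 0.594 in WT crypts and 0.464, 0.546 and 0.539 in Ctnnb1Δi.enh crypts. Both granins thus varied together over these 6 libraries while their ratio moved little.

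Sct and Gip are products of the upper small intestine. Sct (ENSMUSG00000038580; chr7:141278330-141279133, minus strand) encodes secretin, which stimulates bicarbonate secretion by the pancreas. Its FPKM was 16.5, 30.2 and 55.8 in WT crypts and 23.5, 31.4 and 29.6 in Ctnnb1Δi.enh crypts. All knockout libraries lay inside the WT range, which ran over a 3.38-fold span from WT replicate 1 to WT replicate 3. The log2 difference was -0.12 (95% confidence interval -1.06 to 0.83, adjusted p = 0.984). It was 0.32 without WT replicate 3 and 0.0042 without Ctnnb1Δi.enh replicate 1, so its sign rested on single libraries.

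Gip (ENSMUSG00000014351; chr11:96024545-96030831, plus strand) encodes the peptide that raises insulin release after a meal, and it had the highest mean FPKM of the members in crypts. The WT libraries held 101, 74.6 and 168 FPKM and the Ctnnb1Δi.enh libraries 82.4, 94.4 and 105. WT replicate 3 stood far above the other 5 libraries, among which the genotypes were mixed. For Gip the log2 difference was -0.21 (95% confidence interval -0.89 to 0.48, adjusted p = 0.941), and without WT replicate 3 it was 0.11.

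Gcg, Pyy and Nts are products of cells that become more common in the lower gut. Gcg (ENSMUSG00000000394; chr2:62474530-62483650, minus strand) encodes proglucagon, the source of GLP-1 and GLP-2 in the intestine. It measured 23.4, 25.3 and 20.2 FPKM in WT crypts and 13.9, 23.3 and 20.3 in Ctnnb1Δi.enh crypts. Replicate 1 of the knockout was low and the remaining libraries overlapped. The log2 difference of -0.28 had a 95% confidence interval of -0.76 to 0.20 (adjusted p = 0.896) and ran from -0.43 to -0.072 when single libraries were dropped.

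Pyy (ENSMUSG00000017311; chr11:102106676-102107832, minus strand) encodes peptide YY, which slows gut transit and reduces appetite. WT crypts gave 3.17, 9.64 and 11.7 FPKM and Ctnnb1Δi.enh crypts 3.60, 7.76 and 5.08. The lowest library of all was WT replicate 1, and the groups overlapped. These values rest on 31 to 116 fragments per library. A log2 difference of -0.42 was found (95% confidence interval -1.54 to 0.70, adjusted p = 0.925), and from -0.96 to -0.089 with single libraries left out.

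Nts (ENSMUSG00000019890; chr10:102481756-102490486, minus strand) encodes neurotensin, which acts on gut motility and fat uptake. Its FPKM was 8.70, 15.5 and 20.1 in WT crypts and 4.33, 7.41 and 9.75 in Ctnnb1Δi.enh crypts. Only WT replicate 1 fell inside the knockout range, and the remaining WT libraries stood above all knockout libraries. Of the 9 members, Nts had the largest log2 difference in crypts, -0.98 (95% confidence interval -1.85 to -0.11, adjusted p = 0.823; exact permutation p = 0.2). Dropping any single library kept it between -1.31 and -0.68.

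Sst (ENSMUSG00000004366; chr16:23889573-23890958, minus strand) encodes somatostatin, the product of D cells, which restrains the release of other hormones. Its FPKM was 74.0, 84.6 and 79.5 in WT crypts and 56.1, 60.7 and 65.8 in Ctnnb1Δi.enh crypts. The gap between the groups, from 65.8 to 74.0, was the widest of the non-overlapping members relative to their spread, and the coefficient of variation within a group was 6.69% and 7.98%. The log2 difference was -0.38 (95% confidence interval -0.68 to -0.089, adjusted p = 0.799; exact permutation p = 0.1). No single library changed this much, the value staying between -0.44 and -0.33 when any was dropped.

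Tph1 (ENSMUSG00000040046; chr7:46644641-46672537, minus strand) encodes tryptophan hydroxylase, the enzyme of serotonin-making enterochromaffin cells. In WT crypts it was measured at 3.70, 2.78 and 3.08 FPKM, and in Ctnnb1Δi.enh crypts at 2.05, 2.37 and 3.05. Ctnnb1Δi.enh replicate 3 reached into the WT range and the other knockout libraries lay below it. For Tph1 the log2 difference was -0.31 (95% confidence interval -0.72 to 0.10, adjusted p = 0.881; -0.44 to -0.20 with a library dropped).

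**Figure D1:**
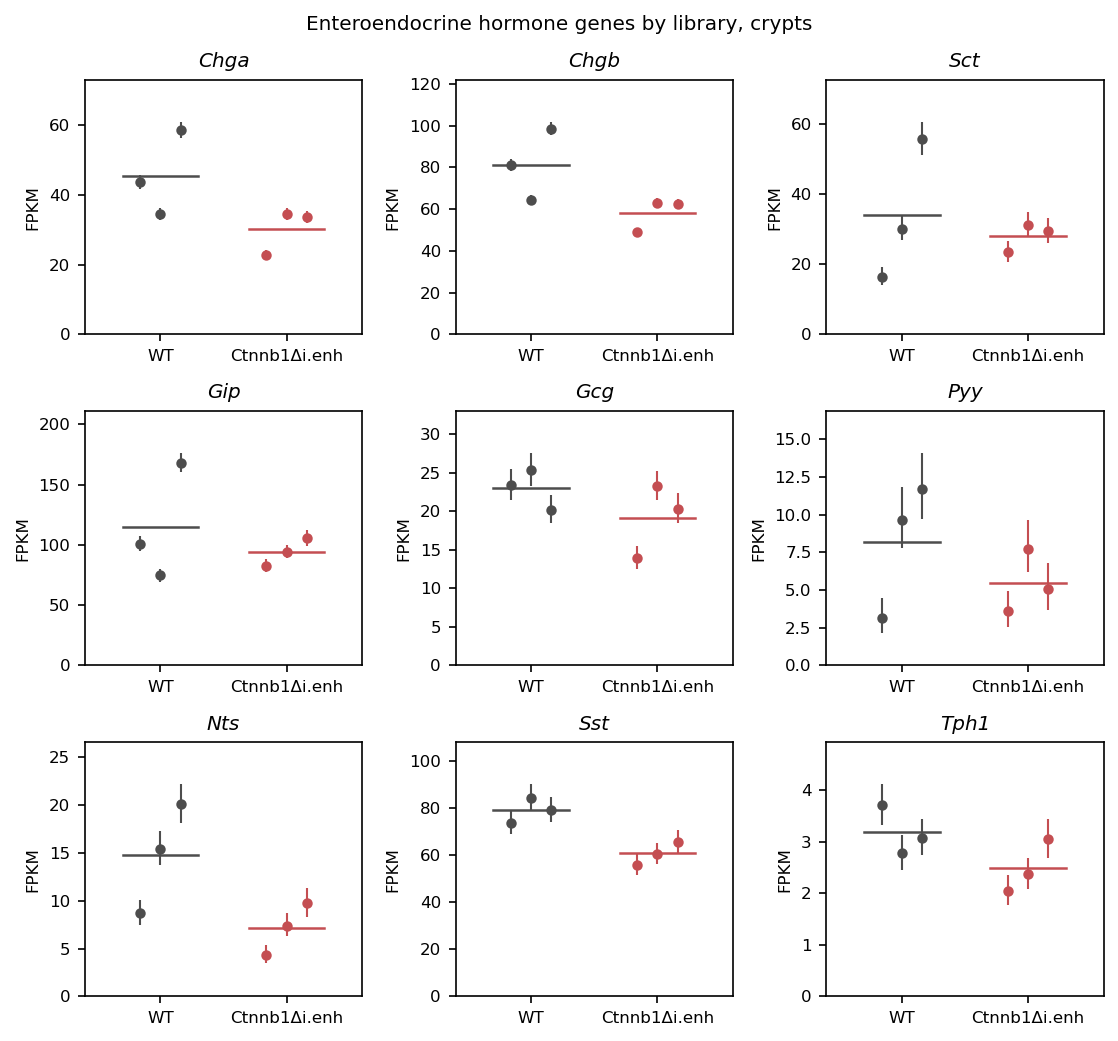
FPKM of each hormone gene in the 6 crypt libraries (points: libraries, replicates 1 to 3 from left to right; vertical bars: 95% Poisson interval of the fragments behind a point; horizontal lines: group means). For Chga, Chgb and Sst all Ctnnb1Δi.enh points lie below all WT points, with the widest gap for Sst (65.8 to 74.0 FPKM), and WT replicate 3 is far above the rest for Gip (168 FPKM) and Sct (55.8 FPKM).

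By mean FPKM over the 6 crypt libraries the order was Gip (104), Sst (70.1), Chgb (69.8), Chga (37.9), Sct (31.2), Gcg (21.1), Nts (11.0), Pyy (6.83) and Tph1 (2.84). Chgb was above Chga and Gcg above Nts in all 6 libraries, whereas the other neighbours changed places in at least 1 library. Over the whole table, 432 genes had a higher mean FPKM than Gip and 9236 a higher one than Tph1. The summed FPKM of the 9 genes was 355, 342 and 515 in WT crypts and 258, 325 and 335 in Ctnnb1Δi.enh crypts. Sums did not overlap between the groups, although WT replicate 2 was only just above the highest knockout library. After rescaling to the same fragment total they overlapped, with Ctnnb1Δi.enh replicate 2 above WT replicate 2. Gip contributed between 21.8% and 32.6% of the sum in each library.

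Members differed in how closely they followed Chga over the 6 crypt libraries. Pearson's r on the log2 scale, given as a description over libraries that share their depth and their genotype groups, was 0.993 for Chgb, and 0 of the 12279 other genes compared had a higher r. It was 0.812 for Nts, 0.798 for Gip, 0.744 for Tph1, 0.708 for Sst, 0.540 for Gcg, 0.502 for Pyy and 0.481 for Sct. Genes outside the list with a high r included Cpn1 (0.990), Plcxd2 (0.978), Adcy7 (0.975) and Klk8 (0.973).

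Regulatory sequence next to the genes was read from RefSeq promoters on GRCm38.p6, in which all 9 members were found, with 11 promoters between them. The cyclic AMP response element TGACGTCA, a palindrome, and its core TGACGT were searched on both strands in the 250 bases before each start site, and every full element also counts as a core. These motifs were chosen after the promoter sequences had been seen, so their shares among the members are not a test. The full element lay before Chgb and Sst, against 1.55% of all 32851 promoters, and the core before Chga, Chgb and Sst, against 6.47%. A match of letters is a description, not a site or a cause. Searched the same way, the TCF motif CTTTGAT or CTTTGAA lay before 1 member, Tph1, against 7.48% of all promoters. The stretches around the core are printed 5′ to 3′ on the strand of each gene with TGACGT in capitals to show the bases around it, which make up the full element in Chgb and Sst but not in Chga. For Chga the 100 bases before the start (chr12:102554841-102554940, plus strand) are given, with the core beginning 44 bases before the start. For Chgb (chr2:132781559-132781588, plus strand) and Sst (chr16:23890874-23890903, minus strand) 30 bases are given, with the core beginning 72 and 48 bases before the RefSeq start. These stretches of Chgb and Sst lie within exons of GENCODE, which places a start of each gene further upstream, and that of Chga does not.
Chga: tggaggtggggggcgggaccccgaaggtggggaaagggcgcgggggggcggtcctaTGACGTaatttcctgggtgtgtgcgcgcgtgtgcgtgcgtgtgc
Chgb: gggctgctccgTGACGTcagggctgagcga
Sst: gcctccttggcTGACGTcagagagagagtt

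Other genes of the same cells were described beside the members. Of 27 genes of dense-core granules and prohormone processing, 19 were tested in crypts, of which 17 were lower and 2 higher in the knockout. Their median log2 fold change was -0.32, with 7 genes lower in all knockout libraries (5.15% of all genes) and limma calling 0 of them (3 at an unadjusted p under 0.05, beside 5.85% of all genes). Summed FPKM of this list was 49.1, 56.3 and 48.9 in WT crypts and 32.5, 38.8 and 45.1 in Ctnnb1Δi.enh crypts, so the sums did not overlap. Its most abundant gene was Cpe, which encodes a carboxypeptidase that trims prohormones (11.3, 12.2 and 8.22 FPKM against 6.69, 8.51 and 9.52). Ptprn2, a granule membrane gene, was at 3.55, 4.99 and 4.39 FPKM against 2.34, 2.33 and 3.26, and the granin Scg2 at 2.26, 2.63 and 1.85 against 1.10, 1.42 and 1.56. Both were lower in every knockout library (log2 fold changes -0.62 and -0.56, adjusted p = 0.797 each).

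Transcription factors of the lineage were lower for 15 and higher for 4 of the 19 tested out of 25, with a median of -0.20. Foxa1 was the most abundant at a mean FPKM of 11.7. Lmx1a, a factor of enterochromaffin cells, was at 0.666, 0.982 and 0.864 FPKM in WT and 0.235, 0.404 and 0.398 in Ctnnb1Δi.enh crypts, and Rfx6 at 2.72, 2.01 and 2.35 against 1.44, 1.53 and 1.99. In neither did the groups overlap (log2 fold changes -0.66 and -0.41, adjusted p = 0.800 and 0.845). Lmx1a passed the filter of 0.5 FPKM only through its WT libraries, as its knockout mean was 0.346 FPKM, so nothing is drawn from its difference. Other enteroendocrine peptides were lower for 5 and higher for 2 of 7 tested out of 14, with a median of -0.14. Cck, the product of I cells and the most abundant of them, was at 13.6, 14.8 and 16.0 FPKM in WT and 15.7, 21.6 and 18.7 in Ctnnb1Δi.enh crypts, toward the opposite side from the members (log2 fold change 0.32, adjusted p = 0.857; 0.21 to 0.43 with a library dropped). Tac1, which enterochromaffin cells make, was at 7.53, 9.18 and 6.01 against 3.94, 5.25 and 6.07 FPKM (log2 fold change -0.53, adjusted p = 0.835).

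Among 7 tested serotonin handling genes 4 were lower and 3 higher (median -0.051), and Maoa was the most abundant at a mean FPKM of 136. Ddc, which encodes the enzyme acting after Tph1 and which other cells of the gut also express, was at 18.0, 17.3 and 16.8 FPKM in WT and 30.5, 25.9 and 23.5 in Ctnnb1Δi.enh crypts, higher in every knockout library (log2 fold change 0.60, adjusted p = 0.728). Of 9 tested nutrient receptors 6 were lower and 3 higher (median -0.24). Ffar1, a fatty acid receptor of these cells, was at 0.665, 0.955 and 0.520 against 0.177, 0.415 and 0.307 FPKM (log2 fold change -0.60, adjusted p = 0.849). With an overall mean of 0.506 and a knockout mean of 0.299 FPKM, Ffar1 too passed the filter only through its WT libraries, and nothing is drawn from it. The sugar transporter Slc5a1, mostly a gene of enterocytes, was the most abundant of that list at a mean FPKM of 491. Receptors for the gut hormones were mostly below the filter in crypts, with 3 of 23 tested (2 lower, 1 higher, median -0.26), 7 at 0 in all libraries and Vipr1 the most abundant at a mean FPKM of 34.3.

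Markers of other cells and gut regions also differed between the crypt libraries. Stomach markers were lower in the knockout for 6 of 6 tested genes (median -2.26), and their summed FPKM was 208, 123 and 16.2 in WT against 13.2, 19.7 and 10.6 in Ctnnb1Δi.enh crypts. Tff2, the most abundant, was at 122, 53.6 and 1.09 against 0.105, 3.37 and 0.122 FPKM. WT replicates 1 and 2 thus stood apart in stomach genes, while WT replicate 3 was within the range of the knockout libraries. Paneth cell markers were lower for 11 of 11 genes (median -0.56), with sums of 30435, 46287 and 80179 in WT and 33019, 29721 and 31841 FPKM in Ctnnb1Δi.enh crypts and with Defa24 the most abundant at a mean of 12578.

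Distal small intestine markers were lower for 10 of 10 genes (median -0.22; sums 1143, 2689 and 4331 against 1688, 1788 and 2267 FPKM), with Fabp6 the most abundant at a mean of 950.1. Proximal markers were higher for 8 and lower for 2 of 10 genes (median 0.40; sums 437, 437 and 1456 against 1185, 714 and 1107 FPKM), led by Fabp1 at a mean of 490.2. Enterocyte markers were higher for 10 of 10 (median 0.55; sums 4702, 6871 and 11883 against 9956, 7412 and 11402 FPKM), with Fabp2 the most abundant at a mean of 2817, and goblet cell markers lower for 8 and higher for 2 of 10 (median -0.26; Tff3 the most abundant at a mean of 2395). These sums differed between libraries of the same genotype, and WT replicate 3, highest for Chga, Chgb, Sct, Gip, Pyy and Nts, was also highest for the Paneth, proximal, distal, enterocyte, goblet and hormone receptor sums. The part of these lists in the hormone values was not tested.

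Further lists were described in the same way. Tuft cell markers were lower for 5 and higher for 2 of 7 genes (median -0.16, Sh2d6 most abundant at a mean FPKM of 18.4), stem and crypt markers for 5 and 5 of 10 (-0.091, Olfm4 at 789.8), epithelium markers for 5 and 4 of 9 (-0.021, Krt8 at 1669) and colon markers for 3 and 3 of 6 (-0.12, Muc2 at 308). Immune markers were lower for 7 and higher for 3 of 10 (-0.26, Mcpt1 at 13.8). Enteric neuron and glia markers were close to absent, with Sox10 at 0 and 1 of 18 genes, Ret, above the filter (0.735, 1.14 and 0.877 FPKM against 0.436, 0.538 and 0.800). Stroma and muscle markers had 3 of 12 above the filter, all lower (-0.54, Dcn at 2.74). Of 12 pancreas markers Ins1, Ins2 and Ppy were at 0, and of the 7 tested 2 were lower and 5 higher (0.057, Cela1 at 5.09).

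**Figure D2:**
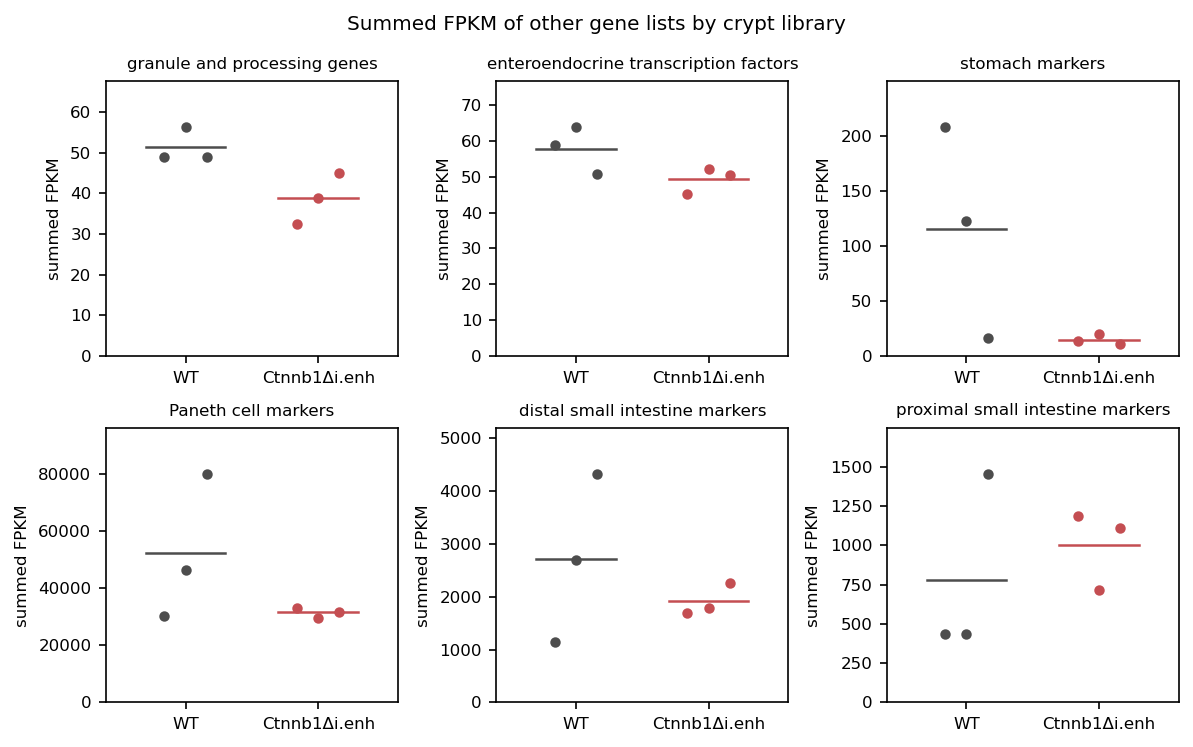
Summed FPKM of other gene lists in the 6 crypt libraries (points: libraries, replicates 1 to 3 from left to right; horizontal lines: group means). Sums of granule and processing genes lie between 32.5 and 45.1 in Ctnnb1Δi.enh and between 48.9 and 56.3 in WT crypts, and the stomach sums are high in WT replicates 1 (208) and 2 (123) alone.

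In the colon tumors 8 members passed the filter and Gip did not. None of the 8 was called, and limma called 0 of 16743 genes (0%), with a lowest adjusted p of 0.269. At an unadjusted p under 0.05 there were 0 of 8 members, against 2421 genes (14.5%), 1417 toward higher and 1004 toward lower in the knockout (1075 and 1346 after rescaling to the same fragment total), and voom called 0 genes. Without a variance trend limma called 1 gene, the microRNA gene Mir3473e, named for that value only. Members were lower in Ctnnb1Δi.enh;Apc Min/+ tumors for 4 of 8, against 48.7% of all genes, and higher for the other 4, with a median log2 fold change of -0.013 beside 0.0075 for all genes. This split rested on single libraries, as 2 of 8 were lower without Apc Min/+ replicate 1 (median 0.077) or without knockout replicate 3 (median 0.16), and 5 of 8 were lower after rescaling to the same fragment total. The groups overlapped for every one of the 8, where they did not for 22.1% of all genes, and all knockout libraries were lower for 0 of 8, against 10.6%. Single libraries decided part of this: the groups did not overlap for Chga and Sct without Apc Min/+ replicate 2, for Sct without knockout replicate 1, and for Chga and Chgb without knockout replicate 3.

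Chga in tumors was at 3.92, 4.88 and 3.57 FPKM in the Apc Min/+ libraries and 5.14, 5.43 and 4.86 in the Ctnnb1Δi.enh;Apc Min/+ libraries. The groups overlapped by a hair, as Apc Min/+ replicate 2 (4.88) was just above knockout replicate 3 (4.86). This gave a log2 difference of 0.30 (95% confidence interval -0.022 to 0.61, adjusted p = 0.371). For Chgb the values were 6.58, 6.26 and 5.05 against 8.12, 10.3 and 5.08 FPKM, with knockout replicate 3 at the level of the lowest control. Its log2 difference was 0.32 (95% confidence interval -0.27 to 0.91, adjusted p = 0.549), or between 0.11 and 0.58 when a library was dropped. Unlike in crypts, the ratio of Chga to Chgb in FPKM was uneven, 0.596, 0.780 and 0.706 in Apc Min/+ tumors and 0.633, 0.528 and 0.958 in the knockout tumors, and r between them was 0.649.

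Sct was low in the tumors, at 0.383, 1.88 and 0.518 FPKM in Apc Min/+ and 0.867, 3.19 and 2.68 in Ctnnb1Δi.enh;Apc Min/+ libraries. These values rest on 4, 20 and 5 fragments against 9, 33 and 27, and the 95% Poisson interval of the lowest, 0.104 to 0.981 FPKM, reached past the lowest knockout library. Intervals and floors of this kind cover counting error only. Apc Min/+ replicate 2 lay between knockout replicates 1 and 3, so the groups overlapped. The log2 difference was the largest of the members in tumors, 0.97 (95% confidence interval -0.24 to 2.18, adjusted p = 0.415; exact permutation p = 0.2).

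Gip was at 0.270, 0 and 0.0973 FPKM in Apc Min/+ tumors and at 0 in all 3 Ctnnb1Δi.enh;Apc Min/+ libraries, from 3, 0 and 1 fragments against none. Both groups were at or under the level that 3 fragments would give, 0.265 to 0.292 FPKM, so no fold was computed and no difference was detectable at this depth.

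Gcg gave 1.24, 1.01 and 0.716 FPKM in Apc Min/+ tumors and 0.915, 1.38 and 0.730 in the knockout tumors, from 16 to 33 fragments. The groups were interleaved, with a log2 difference of 0.0091 (95% confidence interval -0.55 to 0.57, adjusted p = 0.989). Nts was at 0.594, 1.21 and 2.95 against 0.697, 0.450 and 1.54 FPKM. Its control libraries alone spanned nearly the whole range, and the log2 difference was -0.49 (95% confidence interval -1.62 to 0.64, adjusted p = 0.639), or between -0.88 and -0.049 when a library was dropped.

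Pyy was by far the highest member in the tumors. It stood at 35.3, 147 and 45.8 FPKM in Apc Min/+ and at 53.8, 21.1 and 90.7 in Ctnnb1Δi.enh;Apc Min/+ libraries. Within each group 1 library stood well above the others, Apc Min/+ replicate 2 and knockout replicate 3, and the span over the 6 libraries was 6.96-fold. The log2 difference was -0.40 with a wide 95% confidence interval of -2.02 to 1.225 (adjusted p = 0.802). It was 0.22 without Apc Min/+ replicate 2 and 0.17 without knockout replicate 2. Npy, the most abundant of the other enteroendocrine peptides in tumors, which is related in sequence to Pyy and which nerve cells also make, was highest in the same library of each group, at 14.0, 69.2 and 19.4 against 6.70, 3.08 and 23.0 FPKM (log2 fold change -1.68, adjusted p = 0.389; -2.42 to -1.003 with a library dropped).

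Sst was at 1.37, 0.672 and 1.76 FPKM in Apc Min/+ and 1.38, 1.21 and 0.889 in Ctnnb1Δi.enh;Apc Min/+ tumors, from 8 to 19 fragments. The groups overlapped fully, with a log2 difference of -0.051 (95% confidence interval -0.71 to 0.61, adjusted p = 0.949). Tph1 measured 0.841, 0.658 and 0.704 against 0.775, 1.02 and 0.395 FPKM, the knockout libraries lying on both sides of the controls. Its log2 difference was -0.036 (95% confidence interval -0.62 to 0.55, adjusted p = 0.959). For every tested member the interval in tumors held 0, and for all but Chga and Chgb it also held the difference measured in crypts, so these p-values do not show that the levels were alike.

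**Figure D3:**
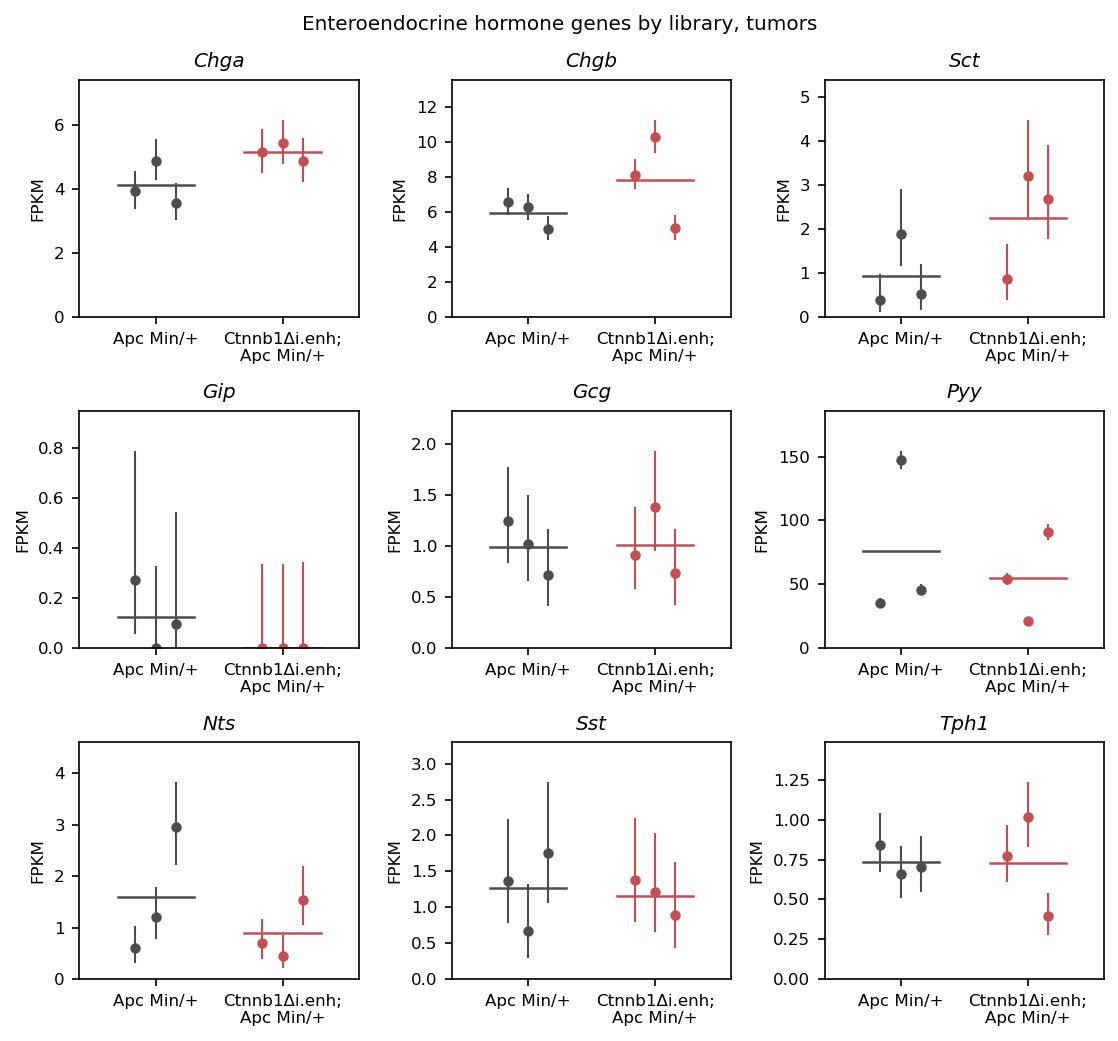
FPKM of each hormone gene in the 6 colon tumor libraries (points: libraries, replicates 1 to 3 from left to right; vertical bars: 95% Poisson interval of the fragments behind a point; horizontal lines: group means). Pyy reaches 147 FPKM in Apc Min/+ replicate 2 and 90.7 in knockout replicate 3, whereas Gip stays at or below 0.270 FPKM.

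In tumors the order by mean FPKM was Pyy (65.6), Chgb (6.90), Chga (4.63), Sct (1.59), Nts (1.24), Sst (1.21), Gcg (0.999), Tph1 (0.732) and Gip (0.0612). Pyy was above Chgb, Chgb above Chga, Chga above Sct, Gcg above Tph1 and Tph1 above Gip in all 6 libraries, and the other neighbours changed places between libraries. The summed FPKM of the members was 50.5, 164 and 61.1 in Apc Min/+ and 71.7, 44.1 and 107 in Ctnnb1Δi.enh;Apc Min/+ tumors. Pyy alone made up between 47.9% and 89.9% of it, so this sum mostly repeats the Pyy values. The makeup thus differed from that of the crypts, where Gip, Sst and Chgb led and Pyy had the second lowest mean, although levels in separately normalized tables are set side by side only as a description.

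**Figure D4:**
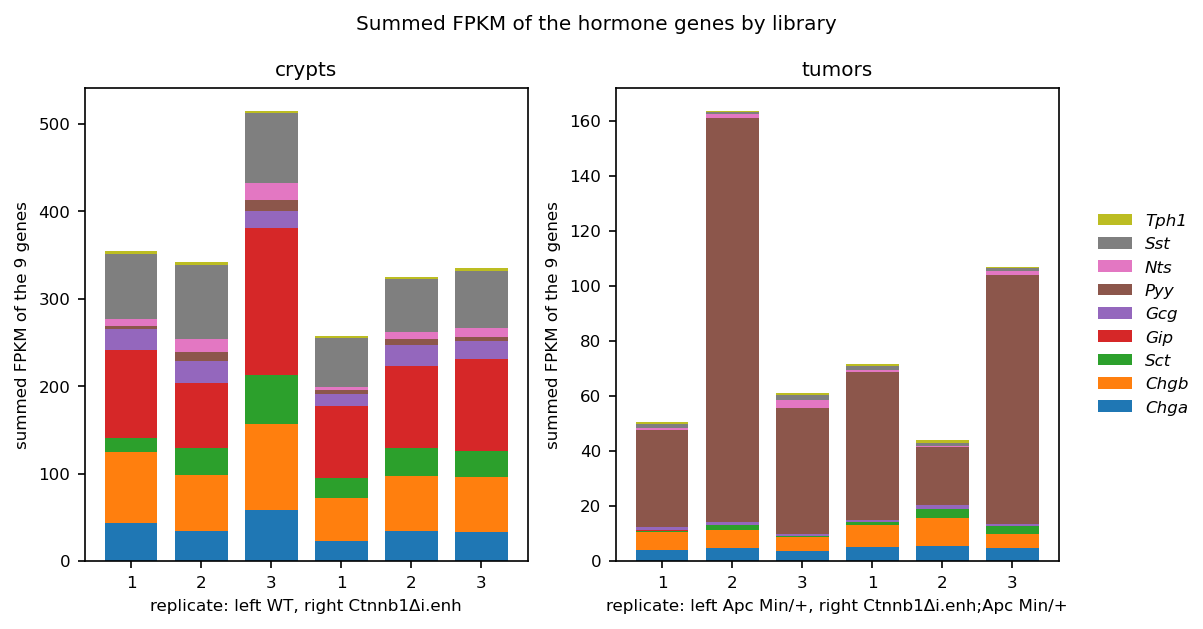
Summed FPKM of the 9 hormone genes in each library, stacked by gene, for crypts (left) and colon tumors (right; tables normalized separately, axes differ). Crypt sums run from 258 to 515 and are shared by several genes, whereas tumor sums run from 44.1 to 164 and are mostly Pyy.

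Over the 6 tumor libraries Sct followed Chga more closely than in crypts and the other tested members less closely, again as a description on the log2 scale. Pearson's r with Chga was 0.792 for Sct, 0.649 for Chgb, 0.338 for Gcg, 0.0729 for Pyy, 0.0657 for Tph1, -0.558 for Sst and -0.595 for Nts. For Chgb 1403 of the 14545 other genes compared had a higher r, where in crypts there were 0. The genes outside the list nearest to Chga were the pseudogene Gm12435 (0.995), Rec8 (0.985), Daxx (0.984), Otud3 (0.983) and Ano6 (0.972), none of which was among the nearest genes in crypts.

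Whether the genotypes differed by another amount in tumors than in crypts was tested as the difference of the within-table differences. Of 13370 genes tested in both tables limma called 0 (0%; lowest adjusted p 0.193), and 1133 (8.47%) had an unadjusted p under 0.05. Among the 8 members tested 0 were called and 2, Chga and Chgb, had an unadjusted p under 0.05. A pseudocount of 0.1 gave 1 called gene, the T cell receptor segment Trbj1-6, named after the fact and not a member. The difference lay above 0 for 8 of 8 members, that is, toward higher in tumors. Members had a median of 0.41 beside -0.011 for all genes, most of which thus lay below 0. That median was 0.23 without Ctnnb1Δi.enh crypt replicate 1 and 0.67 without WT crypt replicate 1, and leaving out other single libraries gave 7 of 8 in some cases. For Pyy it was below 0 after rescaling to the same fragment total (-0.045) and with quantile normalization (-0.12). Chga went from -0.57 in crypts to 0.30 in tumors, a difference of 0.87 (95% confidence interval 0.24 to 1.5, adjusted p = 0.538). Chgb went from -0.47 to 0.32, a difference of 0.79 (95% confidence interval 0.071 to 1.51, adjusted p = 0.567). Sct had the widest step, 1.09, with an interval of -0.45 to 2.63, and the remaining members lay between 0.025 for Pyy and 0.49 for Nts with intervals that held 0. Dropping single libraries gave 0.65 to 1.53 for Sct and 0.11 to 0.93 for Nts. Tissue, gut region and the Apc Min allele differ together between the tables and cannot be told apart here.

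**Figure D5:**
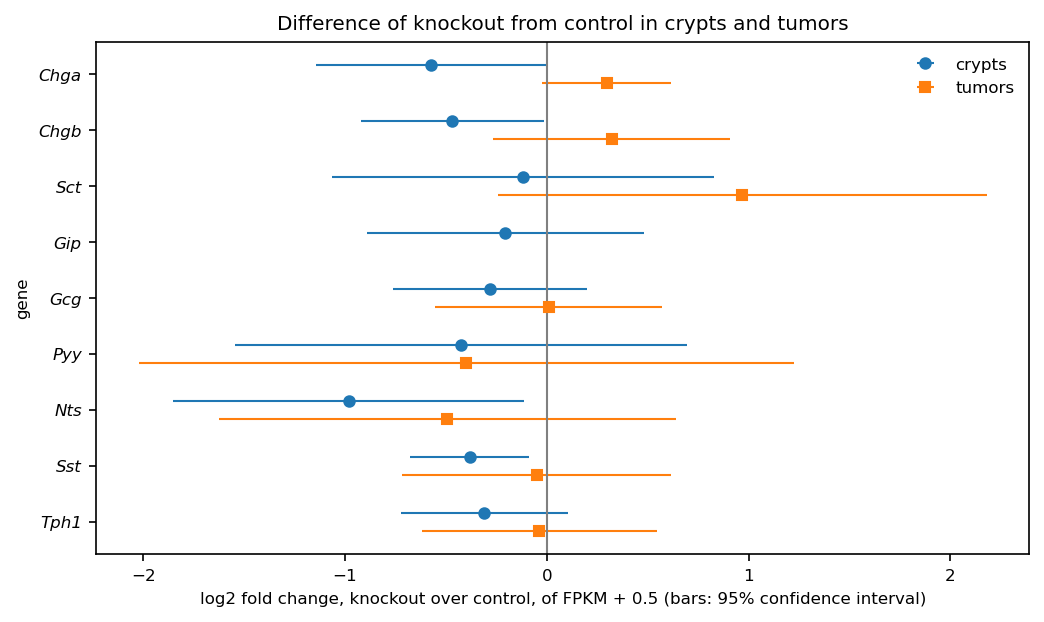
Log2 fold change of knockout over control for each hormone gene in crypts (circles) and colon tumors (squares), with 95% confidence intervals (horizontal bars); Gip was not tested in tumors. All crypt values lie below 0, from -0.98 for Nts to -0.12 for Sct, and the tumor values lie on both sides, from -0.49 for Nts to 0.97 for Sct.

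The related lists in tumors gave a mixed picture too. Of 14 granule and processing genes tested 6 were lower and 8 higher (median 0.19). Syt13, a synaptotagmin, was at 5.17, 3.69 and 4.89 FPKM in Apc Min/+ and 6.67, 10.6 and 6.44 in knockout tumors, higher in every knockout library (log2 fold change 0.71, adjusted p = 0.296). Of the 25 lineage transcription factors 9 were tested, 7 lower and 2 higher (median -0.27), with Sox4 the most abundant at a mean of 59.9. Neurog3, Neurod1 and Rfx6 were among those below the filter, and several of the tested ones are also expressed outside the lineage. Prox1 was at 55.7, 63.4 and 87.4 against 38.1, 46.8 and 37.7 FPKM, lower in every knockout library (log2 fold change -0.73, adjusted p = 0.269), and tumor cells outside the lineage can express it. Other enteroendocrine peptides were lower for 4 and higher for 5 of 9 (median 0.24). Insl5, a product of colonic L cells like Pyy, was at 1.79, 4.27 and 3.14 FPKM against 3.86, 5.60 and 5.93, with overlapping groups (log2 fold change 0.70, adjusted p = 0.343; 0.41 to 0.94 with a library dropped).

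Serotonin handling genes were higher for 7 and lower for 1 of 8 (median 0.22, Maoa most abundant at a mean FPKM of 20.4), and nutrient receptors higher for 4 and lower for 2 of 6 (0.22, Slc5a1 at 14.1). Ffar4, a receptor for long fatty acids, was at 10.7, 9.09 and 8.35 FPKM in Apc Min/+ and 13.5, 23.7 and 16.1 in knockout tumors (log2 fold change 0.85, adjusted p = 0.269). Gut hormone receptors were lower for 5 and higher for 4 of 9 (-0.013, Vipr1 at 18.6).

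Markers of other cell types were compared in the tumors too. All 10 goblet cell markers were higher in every knockout library (median 1.04; sums 1429, 1440 and 1473 against 2728, 3272 and 2879 FPKM; Spink4 most abundant at a mean of 865), as were 8 of 9 epithelium markers (median 0.37; sums 4236, 4277 and 3714 against 5026, 4922 and 5175 FPKM; Krt8 at 1588), where 22.1% of all genes had groups that did not overlap in either direction. Stroma and muscle markers were higher for 11 of 12 genes (0.32, Col1a1 at 121), colon markers for 9 of 11 (0.29, Muc2 at 227), Paneth cell markers for 10 of 11 (0.38, Lyz1 at 1094) and distal small intestine markers for 5 of 6 (0.45, Muc3 at 150.4). Proximal markers were higher for 4 of 5 (0.46, Onecut2 at 12.4) and enteric neuron and glia markers for 3 of 4 (0.34, Ret at 4.87). Onecut2 itself was the lower proximal marker, with a log2 fold change of -0.75. Of the 2 proximal markers at an unadjusted p under 0.05, Onecut2 was lower and the other higher. Lower were 7 of 9 stem and crypt markers (-0.076, Axin2 at 91.6), 4 of 5 tuft cell markers (-0.33, Avil at 50.4) and 4 of 4 stomach markers (-0.41, Gkn3 at 10.6). Immune markers were split 5 to 6 of 11 (0.023, Lyz2 at 356), enterocyte markers 2 to 2 of 4 (0.22, Slc5a1 at 14.1), and both pancreas markers tested were higher (0.31, Cela1 at 53.8) with Ins1 and Ins2 at 0. Values in parentheses are the median log2 fold change and the mean FPKM of the most abundant gene. Markers called by limma numbered 0 in every list, with 10 goblet, 6 stroma and muscle, 4 distal small intestine, 3 epithelium and 2 each of the proximal, colon, stem, stomach and immune markers at an unadjusted p under 0.05, beside 14.5% of all genes, and their part in the hormone values was not tested.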

How the data were processed

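RNA-seq was analysed in 12 libraries, 3 per group. The authors deposited FPKM of every gene for each single library, crypts and tumors in their own tables. The submitters' processing notes name cutadapt, HISAT2, Cufflinks 2.2.1, DESeq2 and the build mm10. The paper's methods name featureCounts in place of Cufflinks, and which tool made the values is not known; fragments were recovered from the even spacing of the values. Gene positions were those of GRCm38 (53548 of 54495 genes matched to GENCODE M21 had the same start and end, the 9 members included). Groups came from the genotype labels. From FPKM, limma 3.58.1 in R 4.3.3 was run on log2(FPKM + 0.5) with a variance trend and no covariates, for genes averaging at least 0.5 FPKM, after a test on simulated data. Intervals of counts are exact Poisson intervals. The members and the gene lists were chosen with earlier results of these data known. Other genes were named as the most abundant gene and the 2 smallest p-values of a list in each tissue, or from the 5 nearest to Chga among genes averaging at least 1 FPKM. Not every gene that met these rules is printed. Ctnnb1 was named as the targeted gene. Alternatives were other pseudocounts, filters, scalings and variance models, voom on the recovered fragments, a replicate block, and leaving out each library.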

Additional observations from a re-analysis of the deposited data

How the results depend on the processing

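With 3 samples per group, moderate differences can be missed, and the exact test cannot fall below p = 0.1. The paper used another test, DESeq2 on counts. It reports significantly reduced Wnt target genes in knockout crypts, from RNA-seq and RT-qPCR, and downregulated Wnt pathway genes in knockout tumors. That limma on FPKM called 0 genes thus does not mean that no gene changed. Low tumor counts limit Gip (0 to 3 fragments), Sct, Gcg, Sst and Nts. Under a filter of mean FPKM 1, Gcg and Tph1 were not tested in tumors, so no value exists there. Mixed cells and regions and the separate scaling of the tables limit what the values can carry.

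No member was called under any alternative, in crypts, in tumors or for the difference between tissues. With 1 library left out, the number of genes called ran from 0 to 3 in crypts. Without a variance trend it was 1 in tumors, and with a pseudocount of 0.1 it was 1 for the difference between tissues. Members whose groups did not overlap numbered 1 in crypts after rescaling to the same fragment total, 3 to 5 with a library left out, where fewer samples overlap more rarely, and 0 to 2 in tumors with a library left out. Members kept their direction in all but 3 of 153 values in crypts, 13 of 134 in tumors and 10 of 174 for the difference between tissues. Other named genes kept it in all but 24 of 888 values in crypts and 13 of 829 in tumors. These tallies include settings that cannot turn a direction: other filters, no variance trend and the replicate block leave a gene's log2 fold change as it was.

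The following log2 fold changes turned their sign under an alternative, and the cause was not tested. In crypts these were, with quantile normalization, Vipr1 (-0.0318), Fabp6 (0.0926), Muc2 (-0.0766) and Tff3 (0.10), and, rescaled without the 50 highest genes, Cela1 (-0.0210) and Muc2 (-0.0569). With a library left out the ranges that crossed 0 in crypts were -0.55 to 0.32 for Sct, -0.47 to 0.11 for Gip, -0.0027 to 0.49 for Slc5a1, -0.17 to 0.19 for Vipr1, -0.105 to 0.16 for Cela1, -0.99 to 0.026 for Try4, -0.46 to 1.465 for Ctrb1, -1.305 to 0.83 for Fabp6, -0.23 to 0.20 for Muc2, -0.045 to 0.38 for Olfm4 and -0.61 to 0.10 for Sh2d6.

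In tumors Gcg turned with rescaling to the same fragment total (-0.0192), rescaling without the 50 highest genes (-0.0185) and voom (-0.0436), Tph1 with quantile normalization (0.0221), and Cela1 with the same settings in that order (-0.0209, -0.0194, and voom -0.0212) and with quantile normalization (-0.10). Ranges with a library left out that crossed 0 in tumors were -0.16 to 0.14 for Gcg, -0.87 to 0.22 for Pyy, -0.32 to 0.15 for Sst, -0.21 to 0.18 for Tph1, -0.047 to 0.14 for Cela1, -0.48 to 0.45 for Gkn3 and -0.25 to 0.21 for Lyz2. For the difference between tissues Pyy gave -0.045 at the same fragment total, -0.12 with quantile normalization and -0.0137 with voom, and -0.45 to 0.64 with a library left out.

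Samples of the compared groups share only a replicate number. A replicate block called 0 genes in crypts, 0 in tumors and 1 for the difference between tissues (Trbj1-3, not a member, named for this value). Correlations of deviations between libraries of the same number lay between -0.122 and 0.037 in crypts and between -0.0898 and 0.0541 in tumors, and 0 of 6 crypt and 2 of 6 tumor libraries correlated best with their own number, a hint from the data and not the design.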
